A study of Mus musculus with 4 samples.

Results

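Collagens, the laminin, nidogen, perlecan and agrin genes of the basement membrane, and the enzymes that hydroxylate and crosslink collagen were followed in C2C12 cells after silencing of Mef2a. Members were all gene symbols that name a collagen chain, a laminin chain, Nid1, Nid2, Hspg2, Agrn, a lysyl, prolyl 4- or prolyl 3-hydroxylase (Plod, P4ha, and Lepre or Leprel) or a lysyl oxidase (Lox, Loxl). Of 13824 symbols in the files, 48 matched by name, and 42 of these averaged 0.5 FPKM or more across the libraries. FPKM counts fragments relative to transcript length and to the fragment total of a library, so levels of different genes are compared per length. The members were 7 fibrillar collagens, 14 basement membrane genes, 7 other collagens and 14 modifying or crosslinking enzymes. The last class, called enzymes below, includes Leprel4, a partner of such an enzyme.

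The 4 libraries came from C2C12, a mouse myoblast line that forms myotubes when serum is lowered. All received 30 nM siRNA with Lipofectamine and were held for 48 h in differentiation medium containing horse serum. In 2 libraries (scrambled) the siRNA was a scrambled sequence, and in the other 2 (siMEF2A) it was directed against Mef2a, which encodes a transcription factor of muscle differentiation. Within a group, libraries are numbered 1 and 2 as in their titles. Whether they were separate cultures is not stated in the labels. The p-values therefore rest on the spread between libraries within groups, which may be technical. In the fit this spread is mostly pooled over all genes tested, and less each gene's own (21.4 prior against 2 residual degrees of freedom).

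Fibrillar collagens are secreted as procollagens, trimmed outside the cell and packed into banded fibrils that carry load. Around each muscle fibre lies a basement membrane, a sheet in which a laminin polymer and a type IV collagen network are joined by nidogens and perlecan. Before a collagen chain folds into its triple helix, its prolines and lysines are hydroxylated in the endoplasmic reticulum. After secretion, lysyl oxidases turn lysines into aldehydes that form covalent crosslinks.

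No member passed the test between siMEF2A and scrambled. In limma, 0 of 42 members were higher and 0 lower at a Benjamini-Hochberg adjusted p under 0.05, where 208 of 12770 genes tested (1.63%) passed, 39 higher (0.305%) and 169 lower (1.32%). At an unadjusted p under 0.05 there were 3 members, against 6.81% of all genes. These were Col8a1 and Loxl4, at 150.8% and 147% of their scrambled means, and Agrn at 76.8%. The difference between the 2 libraries of a group was the larger one for most members. A group difference is taken between means of 2 libraries and a replicate difference between single libraries. The group difference therefore tends to be the smaller one even where nothing changed. In 36 of 42 members the library numbered 2 had the higher FPKM in both groups, which was so for 48.4% of all genes.

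The targeted gene and the state of the cells were measured in the same libraries. Mef2a was at 25.8 and 32.2 FPKM in scrambled libraries against 12.7 and 14.3 FPKM in siMEF2A, so the groups did not overlap (log2 fold change -1.045, SE 0.15, limma adjusted p = 0.000144). Sequencing depth relative to scrambled 1, estimated from low values, ran from 0.847 to 1.05, and absolute depth was unknown. Of 10 muscle markers, 8 were listed, and 4 of these (Myh3, Ckm, Tmem8c and Myog) passed the test as lower in siMEF2A. The summed level of the 8 was 627 and 719 FPKM in scrambled libraries against 399 and 453 FPKM in siMEF2A. The muscle markers Acta1 and Cdh15 were not listed. A gene that is not listed has no value here and is not shown to be unexpressed. Of 6 endothelial markers 0 were listed, and of 7 leukocyte markers 1 was, Cd68, at 1.61 to 1.78 FPKM. The 5 listed markers of fibroblasts and fibro-adipogenic cells summed to 154 and 185 FPKM in scrambled libraries against 210 and 182 FPKM in siMEF2A. Ly6a made up most of this sum, and its groups overlapped, as did those of Dpt. Pdgfra, Cd34 and Pi16 were higher in siMEF2A without overlap, as were 18.9% of all genes. They were at 134%, 137% and 128% of scrambled and did not pass. Of 6 adipocyte, 6 Schwann cell and 6 epithelial markers, 2, 3 and 1 were listed, and none of those tested passed. The part of these shifts in the values of the members was not tested, and fewer cells of a type and less RNA per cell cannot be told apart in such samples.

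**Figure D1:**
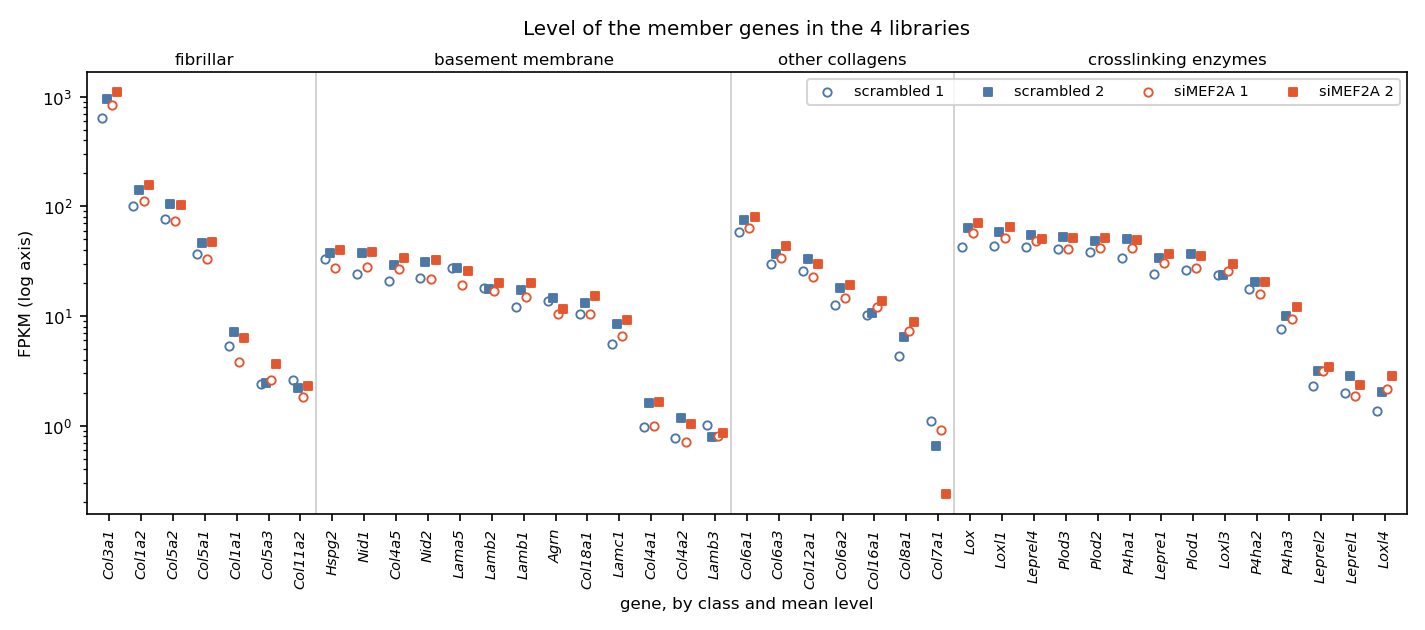
FPKM of 41 of the 42 member genes (log axis) in the 4 libraries, by class. Open circles are the libraries numbered 1 and filled squares those numbered 2, blue for scrambled and red for siMEF2A. In most genes the squares of both colours sit above the circles, and Col3a1 is the highest member in all 4 libraries.

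Among the fibrillar collagens, type III was the most abundant. Col3a1, whose product forms a homotrimer of extensible tissues, was at 640.1 and 963 FPKM in scrambled libraries against 835 and 1105 FPKM in siMEF2A. It ranked 117 among the 12770 genes tested and held 74.0% to 78.6% of the summed FPKM of its class. The groups overlapped, since scrambled 2 lay between the siMEF2A libraries (log2 fold change 0.29, SE 0.25, 95% interval -0.22 to 0.80).

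Col1a2 and Col1a1 encode the 2 chains of type I collagen, the main fibril of skin, bone and tendon, yet they were measured at very unequal levels. Col1a2 was at 102, 139.9, 112 and 156 FPKM in scrambled 1, scrambled 2, siMEF2A 1 and siMEF2A 2. Col1a1 was at 5.33, 7.12, 3.78 and 6.24 FPKM in the same order. Col1a2 was therefore 19.1 to 29.6 times as high as Col1a1 in a library, although the heterotrimer holds more alpha 1 chains than alpha 2 chains. Col1a1 was listed with 1 transcript, which is the only protein-coding one in GENCODE M21. For Col1a2 not every protein-coding transcript of that release was listed. The ratio was higher in both siMEF2A libraries (29.6 and 25.03) than in the scrambled ones (19.1 and 19.6), and neither gene passed the test by itself (limma adjusted p = 1.0 for both).

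The type V chains, which sit inside type I fibrils and limit their width, kept a nearly constant proportion. Col5a2 was at 76.3 and 106 FPKM in scrambled libraries against 73.2 and 103 FPKM in siMEF2A. Col5a1 was at 36.9 and 46.5 FPKM in scrambled libraries against 33.4 and 47.7 FPKM in siMEF2A. The ratio of Col5a2 to Col5a1 stayed between 2.07 and 2.28. Both genes were higher in the library numbered 2 of each group. Of the low members, Col5a3, the third type V chain, was at 2.42 and 2.45 FPKM in scrambled libraries against 2.62 and 3.61 FPKM in siMEF2A, with no overlap (log2 fold change 0.25, limma adjusted p = 0.999). Col11a2, a chain of the cartilage type XI collagen, was at 2.63 and 2.21 FPKM in scrambled libraries against 1.84 and 2.32 FPKM in siMEF2A.

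Over the 7 fibrillar members, the median difference between siMEF2A and scrambled was -0.05 in log2(FPKM + 1), against 0.04 over all genes tested. The median difference of scrambled 2 minus scrambled 1 was 0.36, and that of siMEF2A 2 minus siMEF2A 1 was 0.48. The group difference was smaller than both replicate differences in 6 of 7, against 50.4% of all genes. Summed FPKM of the class was 866 and 1267 in scrambled and 1062 and 1424 in siMEF2A, so the libraries numbered 2 were at 146% and 134% of those numbered 1.

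By FPKM summed over transcripts, basement membrane genes were led by perlecan, the nidogens and Col4a5. Hspg2, the gene of the heparan sulfate proteoglycan perlecan, was at 33.2 and 37.4 FPKM in scrambled libraries against 27.4 and 39.8 FPKM in siMEF2A. Of this sum 51.6% lay on a processed transcript of 820 bases. The coding transcripts of Hspg2 averaged 10.4 and 6.27 FPKM over the libraries, so its first place holds for the sum alone. Nid1, which links laminin to type IV collagen, was at 24.4 and 37.3 FPKM in scrambled libraries against 27.9 and 38.4 FPKM in siMEF2A. Nid2, its paralog, was at 22.2 and 30.9 FPKM in scrambled libraries against 21.9 and 32.3 FPKM in siMEF2A. In all 3 genes the siMEF2A libraries spanned a range that overlapped the scrambled one.

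Col4a5, a type IV chain known from the kidney filter, was at 20.8, 29.2, 26.6 and 33.7 FPKM in scrambled 1, scrambled 2, siMEF2A 1 and siMEF2A 2. The ubiquitous type IV chains were far lower. Col4a1 was at 0.976 and 1.61 FPKM in scrambled libraries against 0.986 and 1.65 FPKM in siMEF2A. Col4a2 was at 0.772 and 1.17 FPKM in scrambled libraries against 0.706 and 1.03 FPKM in siMEF2A. Col4a5 was thus 18.1 to 27.0 times as high as Col4a1 in a library. For Col4a1 not every protein-coding transcript of GENCODE M21 was listed. Each pair of type IV genes lies head to head: Col4a1 and Col4a2 on chromosome 8 overlap by their first bases, and Col4a6 and Col4a5 on chromosome X are 1308 bases apart. Col4a1 and Col4a2 had like replicate differences, 0.40 and 0.29 in scrambled and 0.42 and 0.25 in siMEF2A. Across the other pair the levels were far apart, with Col4a5 at 66.5 to 111 times the level of Col4a6, which was under the level minimum.

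Laminins are trimers of an alpha, a beta and a gamma chain. Lama5 was the only alpha chain among the members. Among beta chains, Lamb2, typical of the mature neuromuscular junction, was at 18.2, 17.7, 17.05 and 19.99 FPKM in scrambled 1, scrambled 2, siMEF2A 1 and siMEF2A 2. Lamb1 was at 11.96, 17.1, 14.7 and 19.8 FPKM in that order. The common gamma chain gene Lamc1 was at 5.58, 8.46, 6.57 and 9.24 FPKM, and Lamb1 was 2.03 to 2.24 times as high as Lamc1 in each library. Lamb3, a beta chain of epithelia, had a mean of 0.864 FPKM, and its groups overlapped.

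Agrn and Lama5 were among the basement membrane genes whose groups did not overlap, and both were lower in siMEF2A. Agrn encodes agrin, the proteoglycan that clusters acetylcholine receptors at the neuromuscular junction. It was at 13.8 and 14.7 FPKM in scrambled libraries against 10.4 and 11.5 FPKM in siMEF2A. Its log2 fold change was -0.35 (SE 0.15, 95% interval -0.66 to -0.05, limma adjusted p = 0.511), larger than the replicate differences of 0.08 and 0.13. Lama5, the alpha chain of laminin-511, was at 27.3 and 27.1 FPKM in scrambled libraries against 19.3 and 25.5 FPKM in siMEF2A (limma adjusted p = 0.927). With 0 members higher and 3 lower without overlap, the class stood beside 18.9% and 9.91% of all genes.

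Over the 14 basement membrane genes, the median group difference was 0.02, against replicate differences of 0.30 in scrambled and 0.39 in siMEF2A. Summed FPKM was 192 and 238 in scrambled and 186 and 249.8 in siMEF2A, so both groups covered nearly the same range. Col18a1, the collagen that yields endostatin, was at 10.4 and 13.1 FPKM in scrambled libraries against 10.5 and 15.3 FPKM in siMEF2A.

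The other collagens held the member with the smallest p. Col8a1 encodes a short-chain collagen of vessel walls and of the membrane under the corneal endothelium. It was at 4.30 and 6.39 FPKM in scrambled libraries against 7.29 and 8.82 FPKM in siMEF2A, with no overlap. Its log2 fold change was 0.53 (SE 0.17, 95% interval 0.19 to 0.87) with an unadjusted p of 0.00394 and a limma adjusted p of 0.154. The scrambled libraries differed by 0.48 on the same scale, nearly as much as the groups. Without scrambled 2 the log2 fold change of Col8a1 was 0.77 and passed (limma adjusted p = 0.00839), and without scrambled 1 it was 0.29 (limma adjusted p = 1.0). Where a library is left out here, its group has 1 library, which is assumed to vary like the other group. Col8a1 also passed with robust moderation (limma adjusted p = 0.0309) and with protein-coding transcripts alone (limma adjusted p = 0.0371). The latter setting was chosen after the data were seen. The only listed transcript of Col8a1 is protein-coding, so that setting left its own values as they were. It changed the values of other genes and the number tested, to 11026.

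Col16a1, a fibril-associated collagen, was at 10.3 and 10.6 FPKM in scrambled libraries against 12.2 and 13.8 FPKM in siMEF2A. Its groups did not overlap either, and its log2 fold change of 0.28 did not pass (SE 0.15, limma adjusted p = 0.838). Col7a1, the anchoring fibril collagen of skin, went the other way between libraries from nearly all other members. It was at 1.10 and 0.651 FPKM in scrambled libraries against 0.913 and 0.236 FPKM in siMEF2A. Its coding transcript Col7a1-202 was at 0.761 and 0.368 FPKM in scrambled libraries against 0.692 and 0.000796 FPKM in siMEF2A. In siMEF2A 2, 99.7% of the sum lay on Col7a1-205, a retained-intron transcript of 695 bases. Col7a1 was one of the 2 members higher in library 1 of both groups, which held for 21.4% of all genes. Without siMEF2A 1, Col7a1 was called lower (log2 fold change -0.59, limma adjusted p = 0.0120), and without siMEF2A 2 the difference changed sign, to 0.04 (limma adjusted p = 1.0).

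Type VI collagen forms a microfibril network next to the muscle basement membrane, and all 3 of its main chains were present. Col6a1 was at 58.3, 75.3, 63.3 and 80.3 FPKM in scrambled 1, scrambled 2, siMEF2A 1 and siMEF2A 2. Col6a3 was at 29.6, 37.1, 33.7 and 43.8 FPKM, and Col6a2 at 12.7, 18.2, 14.6 and 19.3 FPKM. Col6a1 was 4.15 to 4.59 times and Col6a3 2.04 to 2.33 times as high as Col6a2 in each library. The proportions of these summed values thus moved far less than their levels. Of the Col6a3 sum, 34.1% lay on Col6a3-206, a retained-intron transcript of 646 bases. It was at 12.2, 12.4, 11.8 and 12.7 FPKM in the same order, so the ratio is not that of coding transcripts alone. Col12a1, a large fibril-associated collagen, was at 25.6 and 33.0 FPKM in scrambled libraries against 22.6 and 29.5 FPKM in siMEF2A. The median group difference of the class was 0.14, and its replicate differences were 0.35 and 0.34.

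The enzymes were all measured at the higher level in the library numbered 2, in 14 of 14 genes and in both groups. Lox, the lysyl oxidase that starts crosslinking of collagen and elastin, was at 42.3 and 64.1 FPKM in scrambled libraries against 57.7 and 71.2 FPKM in siMEF2A. Its relative Loxl1, needed for elastic fibres, was at 43.5 and 58.3 FPKM in scrambled libraries against 51.5 and 65.0 FPKM in siMEF2A. The ratio of Lox to Loxl1 stayed between 0.973 and 1.12. Loxl4 was at 1.37 and 2.01 FPKM in scrambled libraries against 2.14 and 2.83 FPKM in siMEF2A, with no overlap (log2 fold change 0.38, SE 0.15, limma adjusted p = 0.458). Loxl3 was at 23.8 and 23.9 FPKM in scrambled libraries against 25.5 and 30.0 FPKM in siMEF2A.

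Among the hydroxylases and their partner Leprel4, Plod3 also adds sugars to hydroxylysine. It was at 40.7 and 52.2 FPKM in scrambled libraries against 41.2 and 51.3 FPKM in siMEF2A. Leprel4, the gene now named P3h4 and a partner of lysyl hydroxylase 1, was at 42.3 and 54.8 FPKM in scrambled libraries against 47.9 and 50.1 FPKM in siMEF2A. P4ha3, a catalytic subunit of prolyl 4-hydroxylase, was at 7.56 and 10.0 FPKM in scrambled libraries against 9.38 and 11.98 FPKM in siMEF2A. Leprel2, now P3h3, was at 2.31 and 3.12 FPKM in scrambled libraries against 3.11 and 3.45 FPKM in siMEF2A. None of these passed (limma adjusted p = 1.0 for each). The remaining 6 enzymes (Plod1, Plod2, P4ha1, P4ha2, Lepre1 and Leprel1) had means from 2.25 to 45.1 FPKM and log2 fold changes from -0.12 to 0.21.

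For the 14 enzymes the median group difference was 0.17, and their replicate differences were 0.37 in scrambled and 0.29 in siMEF2A. Summed FPKM was 346 and 461 in scrambled and 398 and 481 in siMEF2A. Set side by side, the median group differences of -0.05, 0.02, 0.14 and 0.17 for fibrillar collagens, basement membrane genes, other collagens and enzymes were each less than the smaller of the replicate differences of their class. Differences between classes were not tested.

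**Figure D2:**
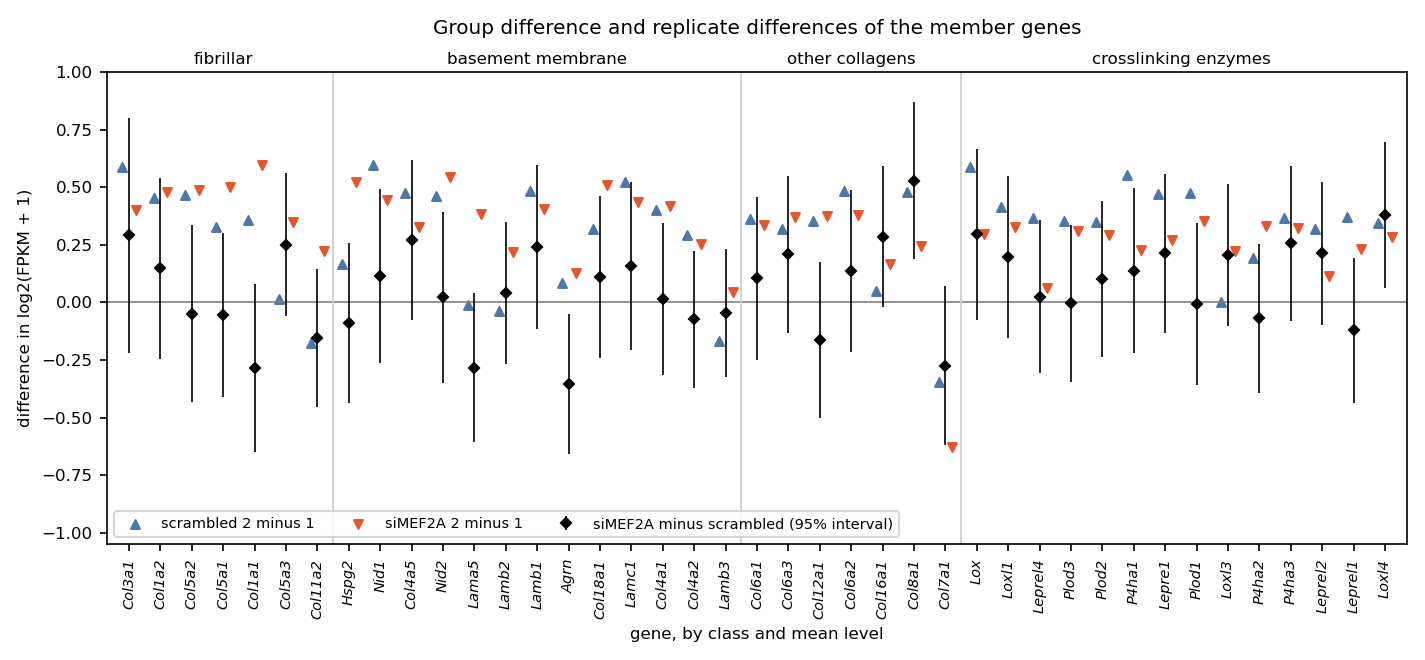
Differences in log2(FPKM + 1) for 41 of the 42 members: siMEF2A minus scrambled (black diamonds, with the 95% interval of the limma fit) and the library numbered 2 minus that numbered 1 within scrambled (blue triangles) and within siMEF2A (red triangles). For 31 of 42 members the diamond is nearer to 0 than both triangles, and most triangles lie above 0.

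Over all 42 members, the groups overlapped in 34 and did not in 8, of which 5 were higher and 3 lower in siMEF2A, against 28.8% of all genes without overlap. The group difference was larger than both replicate differences in 5 members (18.6% of all genes), among them Col8a1, Col16a1, Loxl4 and Agrn, and smaller than both in 31 (50.4% of all genes). Group differences ran from -0.35 to 0.53, with 26 above 0 and 16 below, while 8052 of 12770 genes were above 0. Leaving out 1 library moved the members above 0 to 12 (without scrambled 1), 34 (without scrambled 2), 35 (without siMEF2A 1) or 16 (without siMEF2A 2). The intervals of the fit leave room for moderate changes: that of Col1a1, for example, ran from 63.7% to 106% of scrambled and that of Lox from 94.8% to 159%, as back-transformed log2(FPKM + 1) values.

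The comparison of libraries within a group gave the larger values. The median member was at 133% of scrambled 1 in scrambled 2, and at 127% of siMEF2A 1 in siMEF2A 2. On the log2(FPKM + 1) scale the medians were 0.36 and 0.33, and over all genes tested 0.08 and 0.07. The sign of the median difference between single libraries changed with the pair compared. The median member was 0.43 higher in siMEF2A 2 than in scrambled 1 and 0.23 lower in siMEF2A 1 than in scrambled 2. Between same-numbered libraries it was 0.09 higher in siMEF2A 1 than in scrambled 1 and 0.08 higher in siMEF2A 2 than in scrambled 2.

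Replicate differences went with transcript length, and most members have long transcripts. The longest listed transcript of a member had a median of 5.185 kb, against 2.885 kb over all genes, and 27 of 42 members were in the longest of 4 equal length bins of genes. In that bin the median differences were 0.16 for scrambled 2 minus 1 and 0.17 for siMEF2A 2 minus 1, while in the shortest bin they were -0.06 and -0.10. The enzymes were shorter than the other classes, with a median of 3.28 kb, and their replicate medians were 0.37 and 0.29. In the bin of all genes from 2.886 to 4.37 kb these medians were 0.12 and 0.10. With the trend on length taken out of every library, the medians of the members were 0.24 and 0.19, and those of all genes 0.01 and 0.01. Under median-ratio scaling the medians of the members were 0.27 and 0.26. The number of members higher in both libraries numbered 2 was 31 under either setting, against 33.9% and 34.4% of all genes.

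**Figure D3:**
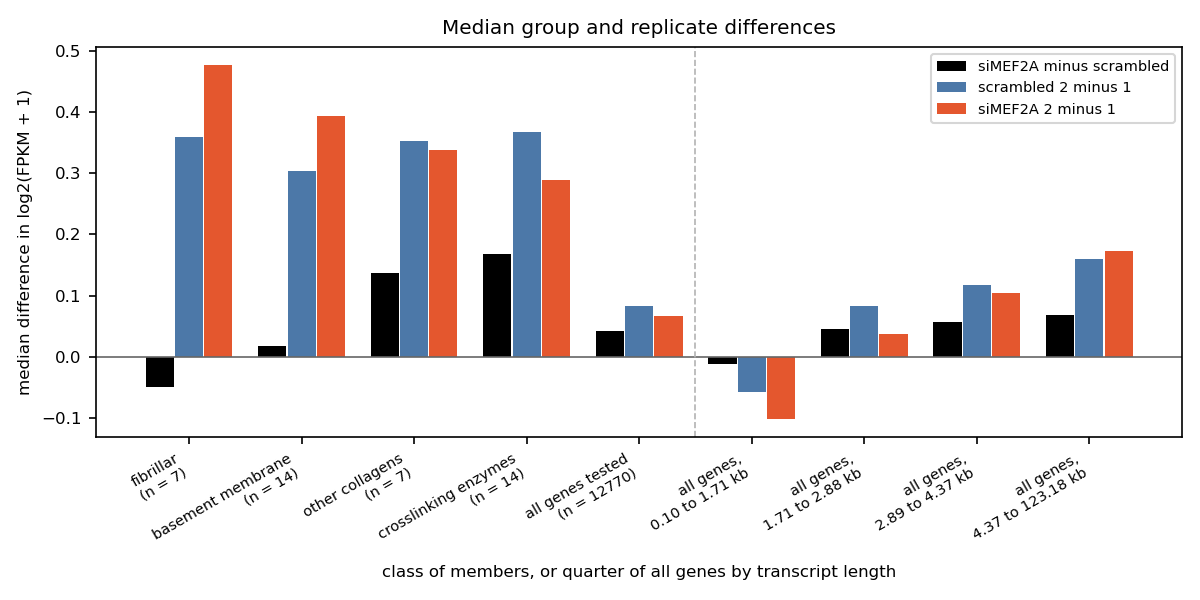
Median difference in log2(FPKM + 1) between groups (black) and between the libraries within scrambled (blue) and within siMEF2A (red). Left of the dashed line are the 4 classes of members and all genes tested, and right of it all genes in 4 bins of transcript length. The replicate medians of every class, from 0.29 to 0.48, stand above those of the longest bin of genes, 0.16 and 0.17.

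Transcripts showed which molecules carried a value. Of the 42 members, 15 were listed with 1 transcript, and in 40 the most abundant one was protein-coding. Every protein-coding transcript of GENCODE M21 was listed for 22 of them. Sums of the other members, and ratios taken with them, may miss transcripts that were not listed. In 13 members under 80% of the summed FPKM lay on transcripts annotated as protein-coding. The full-length transcript of Lama5 (11388 bases) was at 12.5 and 12.2 FPKM in scrambled libraries against 11.4 and 13.3 FPKM in siMEF2A, with overlapping groups. The lower sum of Lama5 in siMEF2A lay on 3 short transcripts without a coding sequence, of which Lama5-202 (451 bases) was at 7.68 and 8.43 FPKM in scrambled libraries against 3.38 and 6.76 FPKM in siMEF2A. Over all of Hspg2, 51.6% of FPKM lay on Hspg2-202, a processed transcript of 820 bases, and 2 coding ones of 14187 and 14176 bases held the rest.

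Agrn was lower in siMEF2A on its main listed transcript and on a retained-intron one. The main one (67.8% of the sum), which was not found in GENCODE M21, was at 8.92 and 9.79 FPKM in scrambled libraries against 7.26 and 8.25 FPKM in siMEF2A. Agrn-205, which retains an intron, was at 3.62 and 3.68 FPKM in scrambled libraries against 1.98 and 2.16 FPKM in siMEF2A. Since the type of the main transcript is not known from that release and the other 3 listed ones are non-coding in it, coding isoforms of agrin are not analysed here.

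Lysyl hydroxylase 2, from Plod2, exists in a long and a short form, of which the long form, with an extra exon, is known to act on the telopeptide lysines used in crosslinks. Plod2-203, whose coding sequence is 63 bases longer (2274 against 2211), held 93.2% of Plod2 FPKM. It was at 34.7 and 45.8 FPKM in scrambled libraries against 38.8 and 48.6 FPKM in siMEF2A. The shorter Plod2-201 was at 0.790 and 0.506 FPKM in scrambled libraries against 1.15 and 0.144 FPKM in siMEF2A, so the long form was the main one in all 4 libraries. Of the coding transcripts of Col6a3, the one with the shorter coding sequence is Col6a3-202. It was at 14.2, 19.9, 17.3 and 25.03 FPKM in scrambled 1, scrambled 2, siMEF2A 1 and siMEF2A 2. Col6a3-201, whose coding sequence is 1821 bases longer, was at 3.10, 4.73, 4.57 and 6.04 FPKM in the same order.

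**Figure D4:**
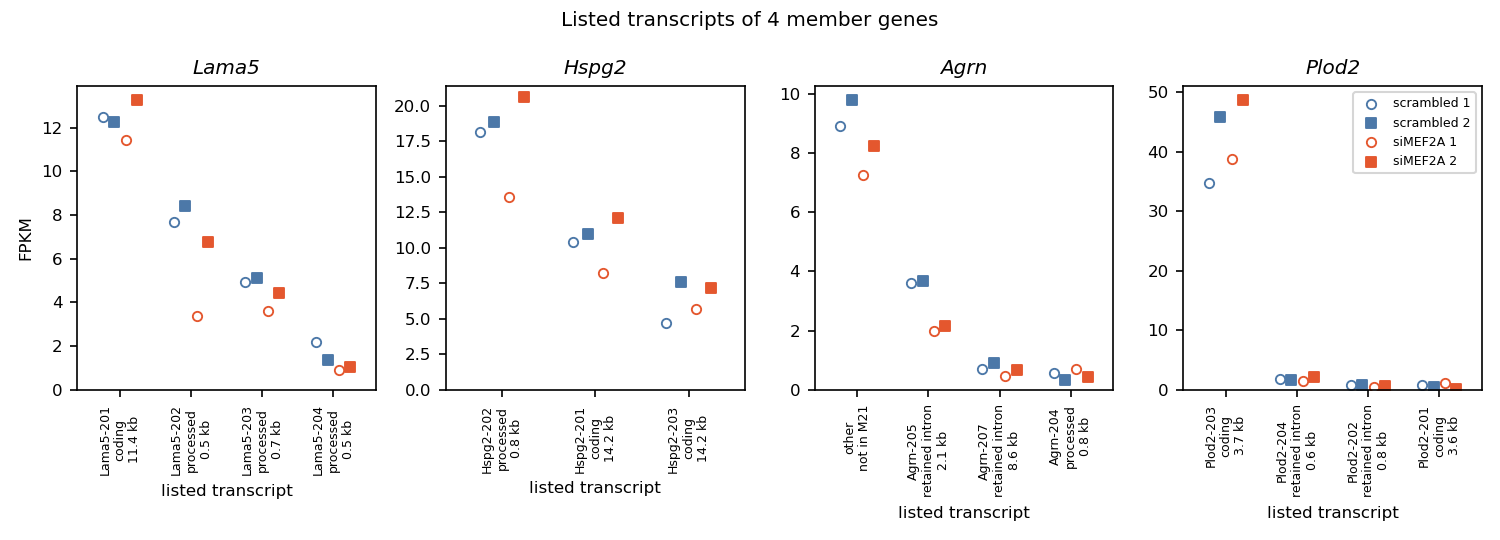
FPKM of each listed transcript of Lama5, Hspg2, Agrn and Plod2 in the 4 libraries (circles for libraries numbered 1, squares for those numbered 2, blue for scrambled and red for siMEF2A), with type and length in GENCODE M21. The coding transcript of Lama5 overlaps between groups, Agrn-205 does not, and Plod2-203 is the main form of its gene in each library.

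Promoters were read for the members because MEF2 factors bind a short AT-rich site. RefSeq windows (GRCm38.p6) from 250 bases before to 50 after the start matched 30 of 42 members in 35 windows. The MEF2 consensus was found on either strand in 0 of 35 windows, and in 3.19% of 32851 windows of all genes. The E-box CANNTG, bound by factors such as myogenin, was in 18 of 35 (72.3% of all), and CCAAT, on either strand, in 13 of 35 (37.4% of all). TATAAA was in 4 of 35 (13.6% of all) and the GC box GGGCGG in 26 of 35 (35.7% of all), again on either strand and with overlapping matches counted once per window. Such a match is a description of letters, and sites further away were not read. The median share of G or C was 61.3% in the windows of members and 52.7% in all windows. Its part in these counts was not tested. To show the range, the 120 bases before the start are given for the most abundant member, Col3a1, and for the 2 members at the ends of the range of group differences, Col8a1 and Agrn (which has 2 annotated starts). On mm10 the genes span chromosome 1 from 45311538 to 45349706 (Col3a1, plus strand), chromosome 16 from 57624258 to 57754737 (Col8a1, minus strand) and chromosome 4 from 156165290 to 156197488 (Agrn, minus strand). The stretches printed overlap no annotated exon. Capitals mark the TATA, CCAAT and GC boxes named above, on either strand.
Col3a1, chr1:45311418-45311537, plus strand: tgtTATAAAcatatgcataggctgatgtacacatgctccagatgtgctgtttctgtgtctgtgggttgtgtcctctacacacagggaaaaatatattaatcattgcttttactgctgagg
Col8a1, chr16:57754738-57754857, minus strand: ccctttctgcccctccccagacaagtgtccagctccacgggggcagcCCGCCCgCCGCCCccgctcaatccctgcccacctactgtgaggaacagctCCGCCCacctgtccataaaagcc
Agrn, upstream start, chr4:156197489-156197608, minus strand: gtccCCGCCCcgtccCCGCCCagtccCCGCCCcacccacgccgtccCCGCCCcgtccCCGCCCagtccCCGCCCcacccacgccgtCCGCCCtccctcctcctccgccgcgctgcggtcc
Agrn, downstream start, chr4:156186260-156186379, minus strand: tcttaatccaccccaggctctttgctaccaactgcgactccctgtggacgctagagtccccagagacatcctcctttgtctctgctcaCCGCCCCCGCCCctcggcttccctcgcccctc
The stretch of Col3a1 held a TATA box sequence starting 117 bases before the annotated start and no GC box. That of Col8a1 held 3 GC boxes, at 67.5% G or C, and that of the upstream start of Agrn 7, at 84.2%. The levels of these genes between groups are those given above, and none had passed the test.

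Genes that act with the members were read from 4 lists. An unadjusted p under 0.05 was found for 6.81% of all genes. Of 17 genes of collagen folding and processing, 0 passed in limma and 1 had such a p, with a median group difference of 0.14. That gene was Adamts2, the procollagen N-proteinase, at 143% of scrambled (limma adjusted p = 0.460). Of 15 matrix proteins that bind collagen fibrils, 0 passed and 2 had an unadjusted p under 0.05, with a median of 0.13. Vcan, the large proteoglycan versican, was at 8.38 and 13.2 FPKM in scrambled libraries against 15.2 and 19.4 FPKM in siMEF2A, with no overlap (log2 fold change 0.66, SE 0.18, limma adjusted p = 0.0639). Without scrambled 2 or siMEF2A 1, Vcan passed (log2 fold change 0.95 and 0.82, limma adjusted p = 9.51e-05 and 0.0111). Without scrambled 1 or siMEF2A 2 its log2 fold change was 0.36 and 0.49 (limma adjusted p = 1.0 and 0.553). In 14 of these 15 genes the library numbered 2 was the higher one in both groups, as in most members, and their median replicate differences were 0.48 in scrambled and 0.32 in siMEF2A.

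Among 19 receptor and dystroglycan complex genes, 1 fell in limma and 0 rose, with a median group difference of -0.01. An unadjusted p under 0.05 was found in 5, against 6.81% of all genes. Among these were Itga10, Itga7 and Sgca at 71.0%, 72.1% and 47.4% of scrambled, and Itgb4 at 140%. They did not pass (limma adjusted p = 0.157, 0.258, 0.285 and 0.333), and Sgca had a mean of 0.685 FPKM. In the list of TGF-beta signalling and its early targets, 3 of 24 genes had an unadjusted p under 0.05. Of the 24, 2 fell and 0 rose, with a median of 0.08, where 1.32% of all genes fell and 0.305% rose. They were Tagln, a smooth muscle actin-binding protein, from 49.9 and 49.4 to 28.2 and 29.0 FPKM (limma adjusted p = 0.00314), and Fst, the activin and myostatin antagonist follistatin, from 1.21 and 1.58 to 0.486 and 0.630 FPKM (limma adjusted p = 0.0139). The call of Fst was lost without scrambled 2 (log2 fold change -0.51, limma adjusted p = 0.117), with the length trend removed (-0.65, limma adjusted p = 0.0618) and under quantile normalization (-0.60, limma adjusted p = 0.0931), against -0.62 with all libraries as deposited.

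Of the 6 genes matched by name and left out for their level, Lama2, the alpha chain of the laminin of mature muscle, was closest, at 0.386 and 0.616 FPKM in scrambled libraries against 0.405 and 0.593 FPKM in siMEF2A, a mean of 0.49991. The lowest member kept was Col7a1, with a mean of 0.724 FPKM. Loxl2, Col24a1, Col11a1, Col4a6 and Col8a2 had means from 0.316 to 0.437 FPKM.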

How the data were processed

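RNA from 4 libraries was compared, 2 scrambled and 2 siMEF2A. The deposited values were FPKM per Ensembl transcript, per the file headers. The build mm10 and the tools Bowtie, CASAVA, Cufflinks, TopHat and Trimmomatic stand in the submitters' processing notes, without versions. The sources used here do not give the annotation, the settings or any scaling between libraries. Reads of near-identical or overlapping genes may be split between them.

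FPKM of the listed transcripts of a symbol were summed (36231 transcripts, 97.3% found by identifier in GENCODE M21, on mm10), and 28 small RNA symbols were left out. Genes averaging 0.5 FPKM or more (12770) were tested as log2(FPKM + 1), which understates changes of low genes, with limma 3.58.1 in R 4.3.3 (trended eBayes, two-sided, 2 residual and 21.4 prior degrees of freedom). P-values were adjusted over all genes tested by Benjamini and Hochberg's method. The script was tested on simulated data. Means are over 2 libraries, and depth was unknown, so counting error could not be given.

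Members, lists and tests were chosen with earlier results of these data known. Genes named were members called, in each class the 4 most abundant and the 4 of smallest p, and per list the called genes or the one of smallest p. Members, list genes and transcripts named beyond that were added after their values were seen, as were the motifs TATAAA and GGGCGG. Examples are Col4a1, Col4a2, Col18a1, further laminin chains, Plod2, Loxl3, Itga7 and Itgb4. The relative depth is the commonest ratio, within 0.3%, among 600 low genes with 1 transcript, shared by 11 to 17 of them. The values of 1 member and of 1 gene of the receptor list are not reported here, and both stay in the counts and medians.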

Additional observations from a re-analysis of the deposited data

How the results depend on the processing

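A member was called under 5 of 17 alternatives, 1 in each. Col8a1 was called higher with robust moderation (log2 fold change 0.53, limma adjusted p = 0.0309), without scrambled replicate 2 (0.77), and with protein-coding transcripts alone (limma adjusted p = 0.0371), the last chosen after the data were seen. Col7a1 was called lower without siMEF2A replicate 1 (-0.59) and was at 0.04 without siMEF2A replicate 2. A group left with 1 library was assumed to vary like the other. Leaving out 1 library gave 0 or 1 members called, and class medians from -0.27 to 0.20 for fibrillar collagens, -0.18 to 0.20 for basement membrane genes, -0.08 to 0.33 for other collagens and -0.05 to 0.32 for enzymes, so that each changed sign. With the other alternatives each class median moved by less than the spread between libraries. The basement membrane median was below 0 under median-ratio (-0.02), upper-quartile (-0.01) and quantile (-0.0017) scaling and with the length trend removed (-0.05), where the fibrillar median was -0.12.

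With the replicate block, 448 genes passed (165 higher, 283 lower), among them 1 member, Col8a1 (limma adjusted p = 0.0103), and 1, 1 and 4 genes of the folding, fibril-binding and receptor lists. The numbers are not said to pair libraries, the column headings number the scrambled libraries otherwise than the titles do, and across all genes the same-numbered deviations correlated at 0.275, and across the 42 members at 0.607.

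Calls over all genes came to 123 under quantile normalization (11 higher, 112 lower). Genes called higher numbered 15 under median-ratio and 15 under upper-quartile scaling, 23 without a trend, 23 with small RNA symbols kept, 16 with the length trend removed, 20 with the most abundant transcript, 91 with robust moderation and 92 with protein-coding transcripts alone. Leaving out 1 library gave 234 to 288 calls, 53 to 88 higher and 174 to 211 lower. In the TGF-beta list 1 gene was called at a minimum mean of 1 FPKM, under quantile normalization and with the length trend removed. In the fibril-binding list 1 was called at that minimum and 1 with robust moderation. In the receptor list 2 were called with robust moderation and 2 with the most abundant transcript. Without 1 library those 3 lists had 1 to 2, 0 to 2 and 1 to 3 called. Mef2a was called lower under all 16 alternatives for which its result was kept (log2 fold change -1.20 to -0.89). With protein-coding transcripts alone its result was not kept. The causes were not tested. Depth is unknown.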
